A study of Mus musculus with 16 samples.

Results

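The expression of 10 genes of hepatic fatty acid synthesis was followed in mouse liver: the transcription factors Srebf1 and Mlxipl, the enzymes Acly, Acaca, Acacb, Fasn, Scd1 and Elovl6, and the lipid-assembly genes Gpam and Pnpla3. They were taken by name from a table of 24411 genes, and all 10 were among the 12901 genes with enough counts to be tested. The data were sequenced polyadenylated RNA from 16 liver libraries in 4 groups of 4. PF mice were pair-fed controls given vehicle, and EtOH mice received an ethanol diet in the NIAAA scheme of chronic drinking with a binge, also with vehicle. EtOH+MBV and PF+MBV mice were on those respective diets and received matrix-bound nanovesicles (MBV), membrane vesicles that are embedded in the fibres of extracellular matrix. The labels name no strain, sex, age, vesicle dose or feeding time. They also do not say that the 4 libraries of a group came from separate mice, so the p-values measure the spread between these libraries, which may in part be technical.

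The liver makes fatty acids from surplus carbohydrate. Acly splits cytosolic citrate to acetyl-CoA, the carboxylases Acaca and Acacb turn acetyl-CoA into malonyl-CoA, and Fasn condenses these units to palmitate. Elovl6 lengthens palmitate, Scd1 places a double bond in the product, and Gpam attaches the first fatty acid to glycerol phosphate. Srebf1 encodes SREBP-1, which is held in the endoplasmic reticulum with Scap and the Insig proteins until it is released and cleaved, and Mlxipl encodes the glucose-responsive factor ChREBP. Both factors switch on genes of this pathway, and in liver the SREBP-1c form follows insulin and LXR.

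Each library held 15271344 to 20493181 counts in genes and 15021 to 15856 detected genes. Levels are given as CPM, a gene's counts divided by the library's total on the customary common scale, after the totals were multiplied by edgeR's TMM factors of 0.863 to 1.27. The hepatocyte marker Alb stood at 62533 to 98068 CPM in every library. EtOH replicate 1 had the highest factor, the lowest summed level of 7 hepatocyte markers (82376 CPM, against 84387 to 132926 in the other libraries) and the highest summed macrophage level (314 CPM). The calls of the 10 genes and of the other pathway genes below are therefore also given without it where that changes them. Calls of cell type markers were not refitted without it. Unmapped reads made up 15.9% to 19.9% of PF, 14.5% to 16.0% of PF+MBV, 11.9% to 13.8% of EtOH and 11.6% to 13.7% of EtOH+MBV libraries, and the part of this difference in the results was not tested. In RNA from whole liver, fewer cells of a type and less RNA per cell cannot be told apart.

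The 10 genes together took 1.57% to 2.34% of all gene counts in PF libraries and 2.44% to 2.89% in PF+MBV libraries. They took 0.160% to 0.544% in EtOH and 0.455% to 0.801% in EtOH+MBV libraries. In the pair-fed libraries most of this was Scd1, which alone held 1.36% to 2.10% of the counts in PF. With ethanol and vehicle, 6 genes fell (Srebf1, Mlxipl, Acly, Acacb, Scd1 and Elovl6) and 1 rose (Pnpla3), by a quasi-likelihood test in edgeR at an adjusted p (Benjamini-Hochberg, over all genes) under 0.05. In that comparison 19.5% of all tested genes were called lower and 20.4% higher. The median log2 change of the 10 was -0.90, beside 0.01 over all genes. Between the MBV groups, 9 of the 10 were lower on ethanol, where 16.7% of all genes were called lower, and the median was -1.54 beside -0.01. All 10 had every EtOH+MBV library below every PF+MBV library, as had 19.9% of all genes. With MBV on the pair-fed diet 3 genes rose (Fasn, Pnpla3 and Gpam), where 0.752% of all genes were called higher. With MBV on the ethanol diet none of the 10 passed the test in edgeR, DESeq2 or limma voom, where 2.69% of all genes were called in either direction by edgeR. Of the 10, 1 had an unadjusted p under 0.05 there by edgeR, as had 2723 of the 12901 tested genes. Comparisons that name the same group share its libraries, so their values stand side by side and are not set against each other.

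**Figure D1:**
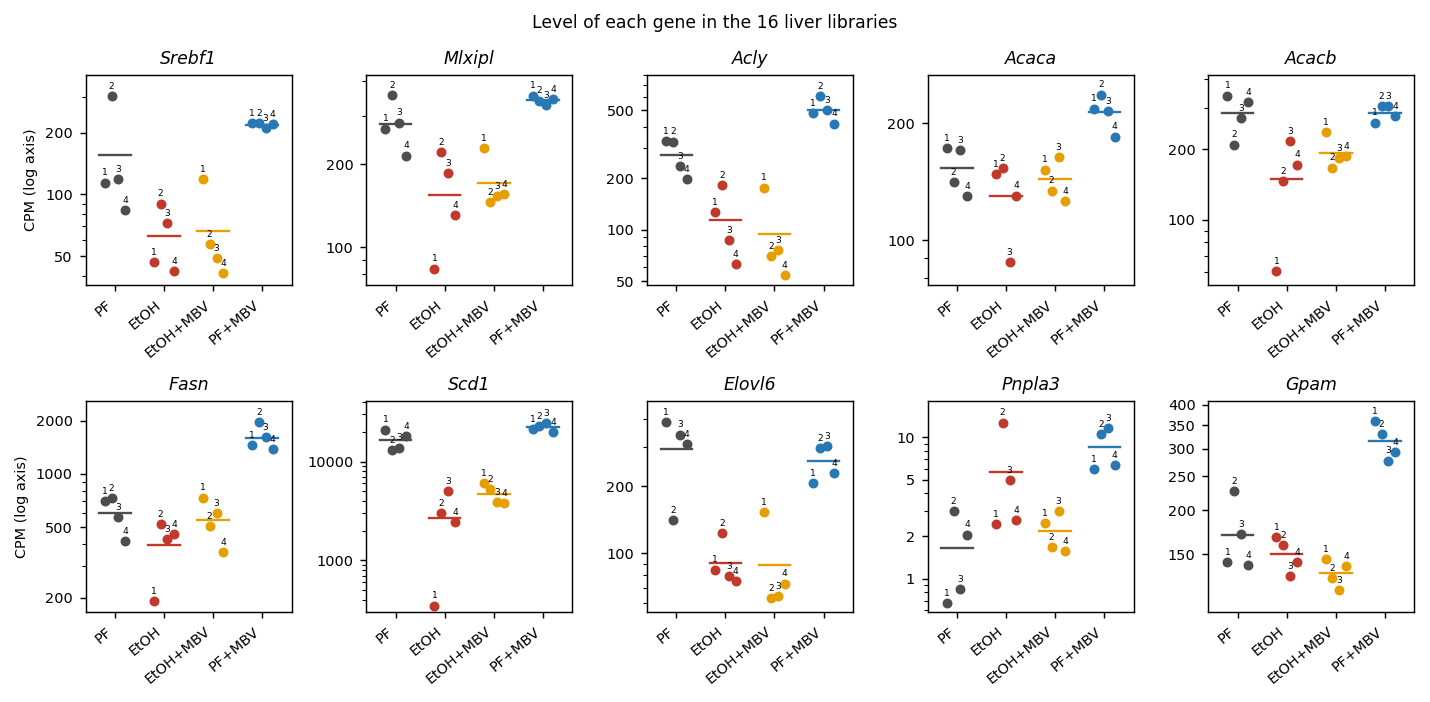
Level of each of the 10 genes in every library, as CPM on a log axis with its own range per gene. Points are libraries with their replicate number and bars are group means. In PF+MBV the Fasn libraries sit between 1377 and 1956 CPM, above every other library, and Scd1 in EtOH spreads from 348 to 5009 CPM.

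**Figure D2:**
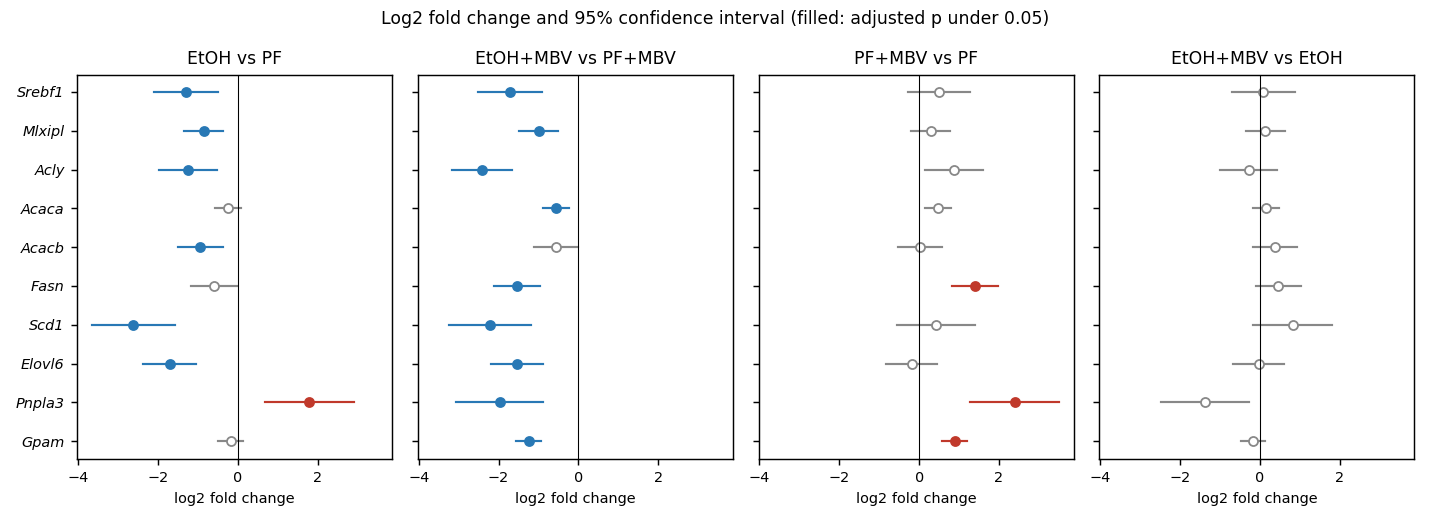
Log2 fold change with its 95% confidence interval for each gene in the 4 comparisons, filled where the adjusted p was under 0.05 (red higher, blue lower). All 10 points lie below 0 in the EtOH+MBV against PF+MBV panel, and no point is filled in the EtOH+MBV against EtOH panel.

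Srebf1 lies at chr11:60199089-60222581 on the minus strand (GRCm38), and its counts do not separate the SREBP-1a and SREBP-1c transcripts. In PF replicates 1 to 4 its level was 114, 303, 119 and 84.0 CPM, and with ethanol it was 46.9, 90.2, 72.6 and 42.2 CPM. The PF group thus had a single high library, replicate 2, and 1 EtOH library reached into its range. The difference was a log2 change of -1.30 ± 0.38 (SE; adjusted p = 0.0123, edgeR), and without PF replicate 2 it was -0.75 (adjusted p = 0.0688) and no longer passed. PF+MBV libraries held 223, 222, 211 and 219.5 CPM and EtOH+MBV libraries 119, 57.4, 48.9 and 41.5 CPM, with no overlap, a log2 difference of -1.72 ± 0.38 (adjusted p = 0.00272). The 4 PF+MBV libraries lay close together, with a coefficient of variation of 2.48%. With MBV the log2 difference was 0.50 (95% interval -0.28 to 1.28) on the pair-fed diet and 0.08 (-0.71 to 0.87) on ethanol, and neither passed. Exons of Srebf1 share up to 109 bases with Rai1 on the opposite strand, and reads of such a stretch cannot be parted in these unstranded libraries.

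Mlxipl, at chr5:135089890-135138382 on the plus strand, ranged from 215 to 356 CPM in PF, 83.6 to 221 CPM in EtOH, 146 to 229 CPM in EtOH+MBV and 327 to 356 CPM in PF+MBV. Ethanol libraries lay low on both treatments, with 1 EtOH library inside the PF range. The log2 change was -0.86 ± 0.24 without MBV (adjusted p = 0.0090) and -0.999 ± 0.24 with it (adjusted p = 0.00403). With MBV it differed by 0.28 (95% interval -0.21 to 0.78) on the pair-fed and by 0.14 (-0.35 to 0.63) on the ethanol diet, and neither passed. Exons of Mlxipl share up to 235 bases with the gene model Gm43500 on the opposite strand, where unstranded reads cannot be parted.

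Acly, the citrate-splitting enzyme at chr11:100476353-100528000 on the minus strand, stood at 329, 327, 235 and 198 CPM in PF and at 126, 182, 86.5 and 62.6 CPM in EtOH. All EtOH libraries were below all PF libraries, which held for 16.3% of all tested genes in this direction. The log2 change was -1.25 ± 0.35 (adjusted p = 0.00916). PF+MBV libraries held 481, 605, 501 and 418 CPM and EtOH+MBV libraries 176, 69.7, 75.8 and 54.2 CPM, also without overlap. That log2 difference was -2.41 ± 0.36 (adjusted p = 0.00015). All PF+MBV libraries also lay above all PF libraries, but the difference of 0.88 ± 0.34 did not pass (adjusted p = 0.193). It passed when PF and PF+MBV were fitted without the other groups (adjusted p = 0.0113).

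The 2 carboxylases serve different pools. Acaca, at chr11:84129672-84401651 on the plus strand, makes the malonyl-CoA used for synthesis, and Acacb, at chr5:114146535-114250761 on the plus strand, makes the pool at mitochondria that restrains fatty acid oxidation. Acaca ranged from 130.1 to 173 CPM in PF and from 88.1 to 153 CPM in EtOH, a log2 difference of -0.24 (95% interval -0.57 to 0.09, adjusted p = 0.228). Acacb ranged from 209.9 to 339.7 CPM in PF and from 60.3 to 216 CPM in EtOH, and it fell by 0.94 ± 0.26 on the log2 scale (adjusted p = 0.0105). That call was lost by a small margin when only EtOH and PF were fitted (adjusted p = 0.0511). Between the MBV groups Acaca was lower on ethanol (log2 difference -0.57 ± 0.16, adjusted p = 0.00992), with 126 to 163 CPM against 185 to 237 CPM. Acacb had the same value, -0.57 ± 0.26, and did not pass (adjusted p = 0.102), although its 167 to 238 CPM did not overlap 261 to 307 CPM. It passed when only those groups were fitted (adjusted p = 0.00345) and without EtOH replicate 1 and EtOH+MBV replicate 1 (-0.67, adjusted p = 0.00213). Whether the ethanol difference of Acaca differs from that of Acacb was not tested. For Acaca all PF+MBV libraries lay above all PF libraries, as for 7.7% of all tested genes. That log2 difference of 0.47 ± 0.16 did not pass (adjusted p = 0.122), but it did in a fit of PF and PF+MBV alone (adjusted p = 0.0243). Acacb differed by 0.01 ± 0.26 there (adjusted p = 0.987). With MBV on ethanol Acaca differed by 0.15 and Acacb by 0.38, and neither passed (adjusted p = 0.628 and 0.434).

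Scd1, the stearoyl-CoA desaturase at chr19:44394455-44407879 on the minus strand, held 21070.5, 13173, 13865 and 17945 CPM in PF. It held 348, 2996, 5009 and 2419 CPM in EtOH. The highest EtOH library was thus below the lowest PF library, and EtOH replicate 1 was lower again by a wide margin, with the highest EtOH library at 14.4 times its level. The log2 change was -2.62 ± 0.49 (adjusted p = 0.000672), and over 16 alternatives of processing or of libraries left out it stayed between -3.11 and -2.24. EtOH+MBV libraries held 6059.7, 5222, 3886 and 3825 CPM and PF+MBV libraries 21143, 22869.6, 24681 and 19907 CPM. The groups again did not overlap (log2 difference -2.22 ± 0.49, adjusted p = 0.00247). On the ethanol diet the MBV mean of 4748 ± 1086 CPM (SD, n = 4) stood beside 2693 ± 1917 CPM without MBV. This log2 difference of 0.82 did not pass (95% interval -0.17 to 1.81, adjusted p = 0.334), and the groups overlapped.

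Elovl6, the elongase of palmitate at chr3:129532355-129638495 on the plus strand, stood at 388, 141, 341 and 309 CPM in PF. It stood at 84.8, 124, 79.5 and 75.4 CPM in EtOH. PF replicate 2, high in Srebf1, was low in Elovl6, yet still above every EtOH library. The log2 change was -1.70 ± 0.31 (adjusted p = 0.000561). PF+MBV libraries held 206, 298, 302 and 228 CPM and EtOH+MBV libraries 154, 63.1, 64.6 and 73.3 CPM, again without overlap (log2 difference -1.54 ± 0.31, adjusted p = 0.00139). With MBV, Elovl6 differed by -0.19 (95% interval -0.83 to 0.45) on the pair-fed diet and by -0.03 (-0.68 to 0.61) on ethanol. It was the member with a negative value on the pair-fed diet, where the other 9 were above 0. Exons of Elovl6 share up to 34 bases with the gene model Gm35986 on the opposite strand.

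Fasn, Gpam and Pnpla3 were the members that rose with MBV on the pair-fed diet, and the 250 bases before their RefSeq starts (GRCm38.p6) are shown for that reason. Capitals mark matches on either strand to the NF-Y box CCAAT and the GC box GGGCGG. The windows are chr11:120824548-120824797 (minus strand) for Fasn, chr19:55127239-55127488 (minus strand) for Gpam and chr15:84167566-84167815 (plus strand) for Pnpla3, each printed 5′ to 3′ on the gene's strand.
Fasn: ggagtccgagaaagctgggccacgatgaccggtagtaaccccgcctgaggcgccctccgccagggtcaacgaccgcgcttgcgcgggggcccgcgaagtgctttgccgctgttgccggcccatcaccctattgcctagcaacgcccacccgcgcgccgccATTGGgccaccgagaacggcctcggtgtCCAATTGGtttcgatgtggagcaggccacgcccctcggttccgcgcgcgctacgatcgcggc
Gpam: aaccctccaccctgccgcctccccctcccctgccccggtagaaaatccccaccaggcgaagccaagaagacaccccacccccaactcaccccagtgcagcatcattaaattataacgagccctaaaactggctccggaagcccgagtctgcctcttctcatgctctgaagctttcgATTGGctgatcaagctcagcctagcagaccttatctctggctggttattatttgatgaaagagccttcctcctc
Pnpla3: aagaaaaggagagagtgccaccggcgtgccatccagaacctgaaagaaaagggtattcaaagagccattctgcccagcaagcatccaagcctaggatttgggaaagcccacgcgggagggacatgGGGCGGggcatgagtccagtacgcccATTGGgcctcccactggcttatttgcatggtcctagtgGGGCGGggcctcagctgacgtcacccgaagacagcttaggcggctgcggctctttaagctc
The Fasn window holds 3 NF-Y boxes, of which 2 overlap at positions -62 to -55 from the start. The Gpam window holds 1 NF-Y box, while that before another Gpam start (chr19:55099478-55099727, not printed) holds 1 GC box and no NF-Y box. Pnpla3 holds 1 NF-Y box and 2 GC boxes. Among 32851 RefSeq windows of this length, 33.8% hold an NF-Y box and 32.7% a GC box, so such matches are common. The sterol regulatory element TCACNCCAC, found in 1.05% of windows, and the E-box CACGTG, found in 6.02%, were searched too. Neither has a match in these 3 windows. Over 13 windows of 9 members, TCACNCCAC occurs in 1, before a start of Mlxipl, and CACGTG in 1, before another start of Mlxipl. A match is a description of letters and no measure of binding.

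Fasn encodes fatty acid synthase and lies at chr11:120805846-120824547 on the minus strand. PF libraries held 701, 729, 572 and 417 CPM and PF+MBV libraries 1453, 1956, 1609 and 1377 CPM. Every PF+MBV library was thus above every PF library, which held for 7.7% of all tested genes in this direction. Fasn rose 2.64-fold (log2 change 1.40 ± 0.28, adjusted p = 0.0184). The value stayed between 1.25 and 1.47 when PF replicate 1, 3 or 4 or PF+MBV replicate 2 was left out, but the adjusted p was then 0.0577 to 0.0720. On the ethanol diet the libraries held 192, 522, 427 and 455 CPM with vehicle and 734, 507, 598 and 361 CPM with MBV, which overlap (log2 difference 0.46, 95% interval -0.11 to 1.04, adjusted p = 0.347). With vehicle alone the ethanol difference of Fasn was -0.60 ± 0.27 and did not pass (adjusted p = 0.0885). Between the MBV groups it was -1.54 ± 0.28 (adjusted p = 0.000624).

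Gpam encodes the mitochondrial glycerol-3-phosphate acyltransferase that opens glycerolipid synthesis, and lies at chr19:55067268-55127238 on the minus strand. Its levels were 143, 227, 171 and 139.7 CPM in PF and 359, 329.9, 277 and 293 CPM in PF+MBV. The groups did not overlap, and Gpam rose 1.85-fold (log2 change 0.89 ± 0.15, adjusted p = 0.0086). This call held without each of the 8 libraries in turn and in all 15 alternatives, with adjusted p up to 0.0448. EtOH libraries held 168, 159.5, 130.2 and 143 CPM and EtOH+MBV libraries 146, 128, 119 and 139 CPM, so the ethanol groups overlapped each other and lay near the low end of PF. Ethanol with vehicle gave a log2 difference of -0.18 (95% interval -0.49 to 0.13, adjusted p = 0.341), and the MBV groups differed by -1.24 ± 0.15 (adjusted p = 3.05e-05).

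Pnpla3, which encodes a lipid-droplet protein with lipase activity, lies at chr15:84167837-84187236 on the plus strand and was the least abundant member. It had 11 to 48 counts per PF library, 40 to 218 per EtOH library, 25 to 47 per EtOH+MBV library and 101 to 222 per PF+MBV library. Its level was 0.672, 3.01, 0.848 and 2.05 CPM in PF and 2.42, 12.7, 4.97 and 2.58 CPM in EtOH. EtOH replicate 2 was far above the others, and the lowest EtOH libraries lay within the PF range. Pnpla3 was the member that rose with ethanol (log2 change 1.79 ± 0.53, adjusted p = 0.0135), and without EtOH replicate 2 the value was 1.02 (adjusted p = 0.0874) and did not pass. Nor did it pass in a fit of EtOH and PF alone (adjusted p = 0.0537). PF+MBV libraries held 5.94, 10.4, 11.6 and 6.30 CPM, all above PF, a 5.25-fold rise (log2 change 2.39 ± 0.53, adjusted p = 0.0330). That call was lost without PF replicate 1, 3 or 4 or any single PF+MBV library, with log2 values of 2.13 to 2.53 and adjusted p of 0.0579 to 0.118. EtOH+MBV libraries held 2.47, 1.67, 2.99 and 1.57 CPM, a log2 difference of -1.37 from EtOH (95% interval -2.46 to -0.28, adjusted p = 0.141) and of -1.97 ± 0.51 from PF+MBV (adjusted p = 0.00761). A Pnpla3 exon shares 105 bases with the gene model Gm49513 on the same strand, where reads cannot be assigned to either.

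The difference that MBV made was compared between the diets by an interaction contrast, the EtOH+MBV minus EtOH difference less the PF+MBV minus PF difference. It passed for 2 of the 10 genes, Pnpla3 at -3.76 ± 0.74 and Gpam at -1.06 ± 0.21 on the log2 scale (both adjusted p = 0.0187), where 2.09% of all genes were called in this direction. Pnpla3 was higher with MBV on the pair-fed diet and had a negative value on ethanol, and Gpam likewise. Both calls held in all 23 alternatives, with adjusted p up to 0.0448, and Pnpla3 stood at -2.99 without EtOH replicate 2. Acly (-1.16 ± 0.48, adjusted p = 0.163) and Fasn (-0.94 ± 0.38, adjusted p = 0.157) did not pass. Each passed without a single library, Acly at -1.66 without EtOH+MBV replicate 1 (adjusted p = 0.0289) and Fasn at -1.16 without EtOH replicate 1 (adjusted p = 0.0381). For Srebf1 the interaction was -0.42 (95% interval -1.53 to 0.69) and for Scd1 0.39 (-0.99 to 1.78), intervals that include large differences of either sign.

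**Figure D3:**
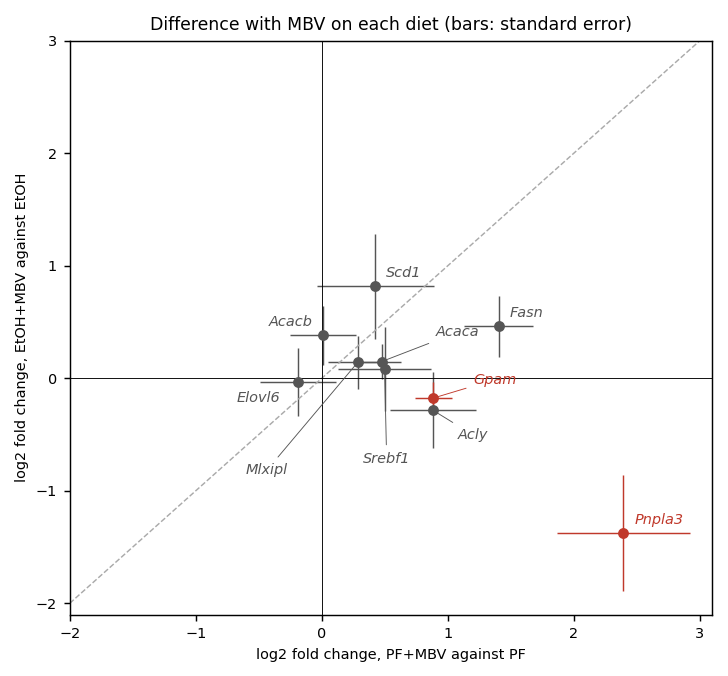
Log2 fold change with MBV on the pair-fed diet (horizontal axis) against that on the ethanol diet (vertical axis) for each gene, with standard errors as bars and equal change on the dashed line. Red marks the genes whose interaction had an adjusted p under 0.05, Gpam and Pnpla3. Pnpla3 lies at 2.39 and -1.37, and Fasn at 1.40 and 0.46.

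Libraries of a group deviated from their mean in several members together. EtOH replicate 2 and EtOH+MBV replicate 1 lay above their group mean of log2 CPM for all 10 genes, with median deviations of 0.53 and 0.41. EtOH replicate 1 lay below for 7 of 10, with a median of -0.58. In PF the members parted: PF replicate 2 had the highest Srebf1, Mlxipl, Fasn, Pnpla3 and Gpam of its group and the lowest Elovl6, Acacb and Scd1. Every PF+MBV library had a median between 0.48 and 0.67 above the PF mean, and every ethanol library a median between -1.58 and -0.22.

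**Figure D4:**
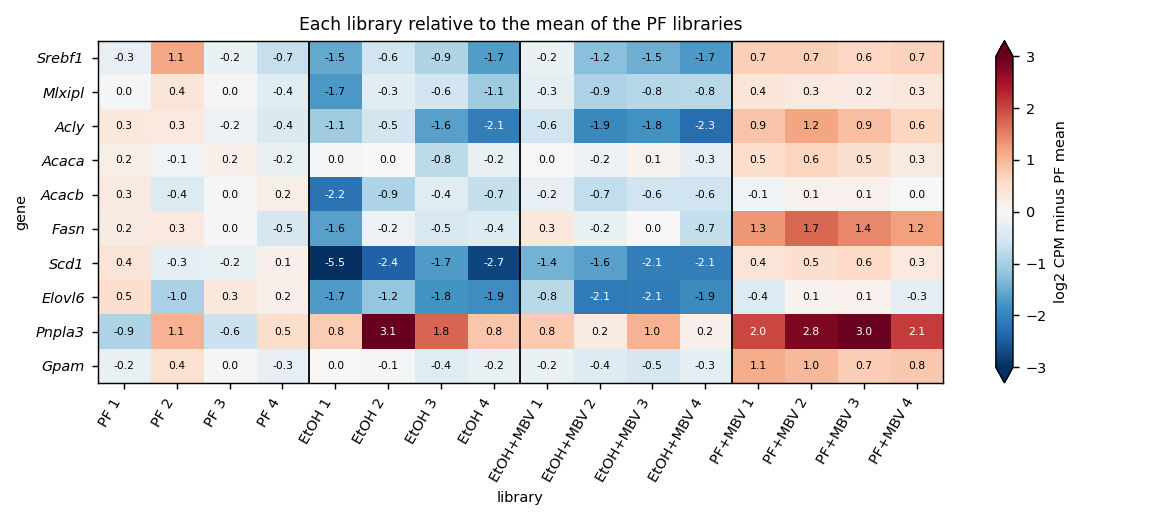
Log2 CPM of each gene in each library minus the mean of the 4 PF libraries, with the value in each cell and red above, blue below. Colours saturate at 3 in either direction. The PF+MBV columns are red or pale throughout. The EtOH and EtOH+MBV columns are blue for most genes apart from Acaca, Gpam and Pnpla3, and apart from Fasn in EtOH+MBV (-0.71 to 0.31).

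Per kilobase of merged exons (GENCODE vM21), Scd1 was the most abundant member in every group, Fasn the second and Pnpla3 the last. In PF, mean levels were 3376 CPM per kb for Scd1, 55.2 for Fasn, 51.6 for Acly, 50.7 for Mlxipl and 45.9 for Elovl6. The lowest Scd1 library (2693 CPM per kb) was far above the highest Fasn library (66.6), whereas the ranges of Fasn, Acly, Mlxipl and Elovl6 overlapped and their order is not fixed by these data. Acacb (29.6), Srebf1 (27.5) and Gpam (25.5) followed with overlapping ranges. Acaca (8.99) and Pnpla3 (1.06) lay below all of these without overlap. The pair-fed libraries with MBV were better separated: Fasn (126 to 179 CPM per kb) lay above Acly (79.1 to 115), Acly above Mlxipl (59.1 to 64.2) and Mlxipl above Gpam (41.6 to 53.9). The merged exon length includes isoforms that liver may not use, 17074 bases for Acaca, so these levels carry that choice.

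Among themselves, the profiles of log2 CPM over the 16 libraries, each centred on its own mean, were closest for Acaca and Gpam (root mean square difference 0.34) and for Mlxipl and Acacb (0.38). Srebf1 was about equally near Mlxipl (0.45) and Acly (0.45). Pnpla3, with a mean below 5 CPM, was left out, as were predicted gene models. Scd1 was far from the other 8 members compared, from 1.05 against Fasn to 1.47 against Acaca, and its own SD was 1.61. Among 9079 genes with a mean of at least 5 CPM, the nearest to Srebf1 were Mmab, Bco2, Hdac11, Pde9a and Apol7a (0.29 to 0.34, beside an own SD of 0.94). Hdac11 and Apol7a were also among the nearest 5 of Acly, with Adck3, the elongase Elovl2 and the desaturase Fads2 (0.29 to 0.41, own SD 1.13). Fasn was nearest to Me1, the malic enzyme that yields NADPH, then Mast3, Slc17a4, Bdh1 and Pnkd (0.40 to 0.44, own SD 0.86). Scd1 was nearest to Mup3, a major urinary protein, the glucose-6-phosphatase G6pc, Serpina12, Slco1a1 and Tmem25 (0.47 to 0.59). These distances describe 16 libraries that share the group differences and the scaling, and carry no test.

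The other genes of the pathway, 45 in 6 lists of which 44 were tested, were read in the same fit. With ethanol, 19.5% of all genes were called lower and 20.4% higher. The list with the largest median difference was that of the other desaturases, elongases and accessory proteins (median -0.80 beside 0.01 over all genes). There 4 of 8 tested genes fell and 1 rose. Those 4 handle polyunsaturated chains: the desaturases Fads2 (-1.99 ± 0.29) and Fads1 (-1.15 ± 0.14) and the elongases Elovl2 (-1.68 ± 0.23) and Elovl5 (-1.43 ± 0.20). Scd2, the stearoyl-CoA desaturase typical of brain, rose by 1.45 ± 0.32, opposite to Scd1, at a mean of 18.3 ± 10.2 CPM (SD, n = 4) against 6.71 ± 0.88. With MBV the same 4 and Acsl5 (-0.57 ± 0.11) were lower on ethanol, 5 of 8 (16.7% of all genes were called lower and 19.2% higher), with Fads2 at -2.27, Fads1 at -1.56, Elovl2 at -2.39 and Elovl5 at -2.19. Scd2 had a difference of -0.03 there and did not pass.

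Of 8 genes that supply carbon or NADPH, 5 fell and 1 rose with ethanol (19.5% of all genes were called lower and 20.4% higher). The citrate carrier Slc25a1 (-0.45 ± 0.12, adjusted p = 0.00612) and the NADPH-forming Idh1 (-0.65 ± 0.14, adjusted p = 0.00181) fell and kept their calls without each single library. Me1 (-0.73) lost its call without PF replicate 4 (-0.60, adjusted p = 0.0838), and Acss2 (-0.89) without PF replicate 1 or EtOH replicate 4 (adjusted p 0.0503 and 0.0542). Pyruvate kinase Pklr (-1.05) lost it without PF replicate 1, 3 or 4 or EtOH replicate 3 (adjusted p 0.0505 to 0.0669). Pgd of the pentose phosphate path rose (0.66), a call lost without PF replicate 1, 3 or 4 or EtOH replicate 1 or 2 (0.42 to 0.62, adjusted p 0.0883 to 0.155). In a fit of EtOH and PF alone Me1, Acss2, Pklr and Pgd did not pass either (adjusted p 0.0689 to 0.1001). With MBV, 6 of 8 were lower on ethanol (16.7% of all genes). Acss2 (-1.44), Me1 (-1.12), Idh1 (-0.84) and Slc25a1 (-0.65) kept their calls without each library. Pklr (-1.05) and Pgd (-0.81) did not: Pgd lost it without EtOH+MBV replicate 4 (adjusted p = 0.0571) and Pklr without EtOH+MBV replicate 2, 3 or 4 or PF+MBV replicate 2, 3 or 4 (0.0582 to 0.103).

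Of 6 sterol-sensing and processing genes, 1 was higher with ethanol and vehicle, where 20.4% of all genes were called higher and 19.5% lower. Between the MBV groups 1 of the 6 was higher on ethanol and 2 were lower (19.2% and 16.7% of all genes). The gene called with vehicle was Insig2, which holds the SREBP complex back. It rose by 1.67 ± 0.37 (adjusted p = 0.00247) from 258 ± 58.9 CPM to 819 ± 507 CPM (SD, n = 4). With MBV, Insig2 was also higher on ethanol (1.17, adjusted p = 0.0212), without passing when EtOH+MBV replicate 3 or 4 or PF+MBV replicate 2 was left out (adjusted p 0.0533 to 0.0695). Insig1, itself a target of SREBP, had 175 ± 68.7 CPM in PF, 164 ± 73.4 in EtOH, 71.8 ± 15.7 in EtOH+MBV and 375 ± 47.7 in PF+MBV. It was lower in EtOH+MBV than in PF+MBV by a log2 difference of -2.39 ± 0.31 (adjusted p = 5.42e-05), and its interaction was -2.29 ± 0.42 (adjusted p = 0.0137), both kept without each library. Insig1 also fell with MBV on ethanol (-1.19, adjusted p = 0.0445), a call lost without EtOH replicate 1 or 2 or any single EtOH+MBV library (adjusted p 0.0583 to 0.130) and with limma voom (0.0592) or in a fit of those groups alone (0.240). Scap was lower in EtOH+MBV than in PF+MBV (-0.44, adjusted p = 0.0242), lost without EtOH+MBV replicate 2 or 3 or PF+MBV replicate 1 or 2 (adjusted p 0.0545 to 0.0823). Srebf2, the cholesterol-directed relative of Srebf1, rose with MBV on the pair-fed diet (0.59, adjusted p = 0.0437). That call held without PF replicate 2 and was lost without any other of the 8 libraries (adjusted p 0.0768 to 0.150).

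Among 8 transcription partners, 3 rose and 2 fell with ethanol, where 20.4% of all genes were called higher and 19.5% lower. Nr1h3, which encodes LXR alpha, an activator of Srebf1, fell from 90.4 ± 3.03 to 48.4 ± 2.97 CPM (SD, n = 4; log2 change -0.90 ± 0.10, adjusted p = 6.12e-06). Its relative Nr1h2 rose by 0.49 ± 0.09 (adjusted p = 0.000374) and Sp1 by 0.56 ± 0.14 (adjusted p = 0.00557). Mlx, the partner of ChREBP, rose by 0.38, a call lost without any single PF library or EtOH replicate 3 or 4 (adjusted p 0.0602 to 0.128) and in a fit of EtOH and PF alone (0.0551), and Usf2 (-0.29) lost its call without PF replicate 4 (adjusted p = 0.0555). Nr1h3 rose with MBV on ethanol to 66.3 ± 9.85 CPM (log2 change 0.46 ± 0.10, adjusted p = 0.0273), from 44.4 to 51.6 CPM in EtOH libraries to 58.0 to 80.2 CPM in EtOH+MBV libraries. That call was lost without EtOH replicate 1 or 2 or EtOH+MBV replicate 3 (adjusted p 0.0592 to 0.0873) and in a fit of those 2 groups alone (0.240). Between the MBV groups 3 of the 8 were lower on ethanol and 2 higher, where 16.7% of all genes were called lower and 19.2% higher. The lower ones were Nr1h3 (-0.44, adjusted p = 0.00234), the coactivator Ppargc1b (-1.06, adjusted p = 0.00483) and Usf2 (-0.25). The higher ones were Mlx (0.64, adjusted p = 0.00194) and Sp1 (0.38). Usf2 lost its call without any of these libraries but EtOH+MBV replicate 1 and PF+MBV replicate 2 (adjusted p 0.0842 to 0.148), and Sp1 without any but EtOH+MBV replicate 1 (0.0747 to 0.133). The interaction of Nr1h2 (-0.51, adjusted p = 0.0315) was lost without PF replicate 1 or 3, EtOH+MBV replicate 2 or 3 or any PF+MBV library (0.0543 to 0.0772). That of Pgd (-1.47, adjusted p = 0.0288) was lost without 9 of the 16 libraries (adjusted p 0.0504 to 0.0652): PF replicate 1, 3 or 4, EtOH replicate 2, EtOH+MBV replicate 2 or 3, and PF+MBV replicate 1, 2 or 4.

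Of 8 genes of glycerolipid assembly and lipolysis, 3 fell with ethanol (19.5% of all genes): the acyltransferase Agpat2 (-0.65, adjusted p = 0.00129), Mogat1 (-2.22, adjusted p = 0.00308, and -3.001 without EtOH replicate 3) and the phosphatase Lpin2 (-0.55). Mogat1 was scarce, with 26 to 37 counts per PF, 1 to 14 per EtOH, 15 to 36 per EtOH+MBV and 43 to 109 per PF+MBV library. The Lpin2 call was lost without PF replicate 1, 3 or 4 or EtOH replicate 1 or 4 (adjusted p 0.0573 to 0.117) and in a fit of EtOH and PF alone (0.0807). Between the MBV groups, 16.7% of all genes were called lower on ethanol and 19.2% higher. The same 3 were lower there (Agpat2 -0.46, Lpin2 -0.87, Mogat1 -1.53), and Dgat2 of triglyceride synthesis (0.69, adjusted p = 0.00589) and the lipase Pnpla2 (0.87, adjusted p = 0.00603), a relative of Pnpla3, were higher. Agpat2 lost that call without EtOH+MBV replicate 4 or PF+MBV replicate 4 (adjusted p 0.0552 and 0.0506) and Mogat1 without PF+MBV replicate 4 (-1.22, adjusted p = 0.0576). Of 6 genes that act on acetyl-CoA carboxylase or its product, 1 rose and 1 fell with ethanol (20.4% of all genes were called higher and 19.5% lower). The AMP kinase subunit Prkab1 rose (0.40 ± 0.09, adjusted p = 0.00285) and was higher on ethanol with MBV too (0.51 ± 0.09, adjusted p = 0.00071). Brca1 (-0.92) fell, a call lost without PF replicate 1, 3 or 4 or EtOH replicate 2, 3 or 4 (adjusted p 0.0799 to 0.121) or in a fit of EtOH and PF alone (0.0982). Prkaa1 rose with MBV on ethanol (0.44, adjusted p = 0.0451), lost without EtOH replicate 1, 2 or 3 or EtOH+MBV replicate 2, 3 or 4 (0.0555 to 0.113). With EtOH replicate 1 and EtOH+MBV replicate 1 both left out, Insig1, Nr1h3 and Prkaa1 lost their calls with MBV on ethanol (adjusted p 0.0660 to 0.0904). With MBV on the pair-fed diet, 2 of the 44 passed, Srebf2 and Elovl5, both higher, where 0.752% of all genes were called higher. Elovl5 rose by 0.97 ± 0.19 (adjusted p = 0.0190), lost without PF replicate 1, 3 or 4 or PF+MBV replicate 1 or 2 (adjusted p 0.0553 to 0.0796). All 8 carbon and NADPH genes had values above 0 there (median 0.35) and none passed.

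**Figure D5:**
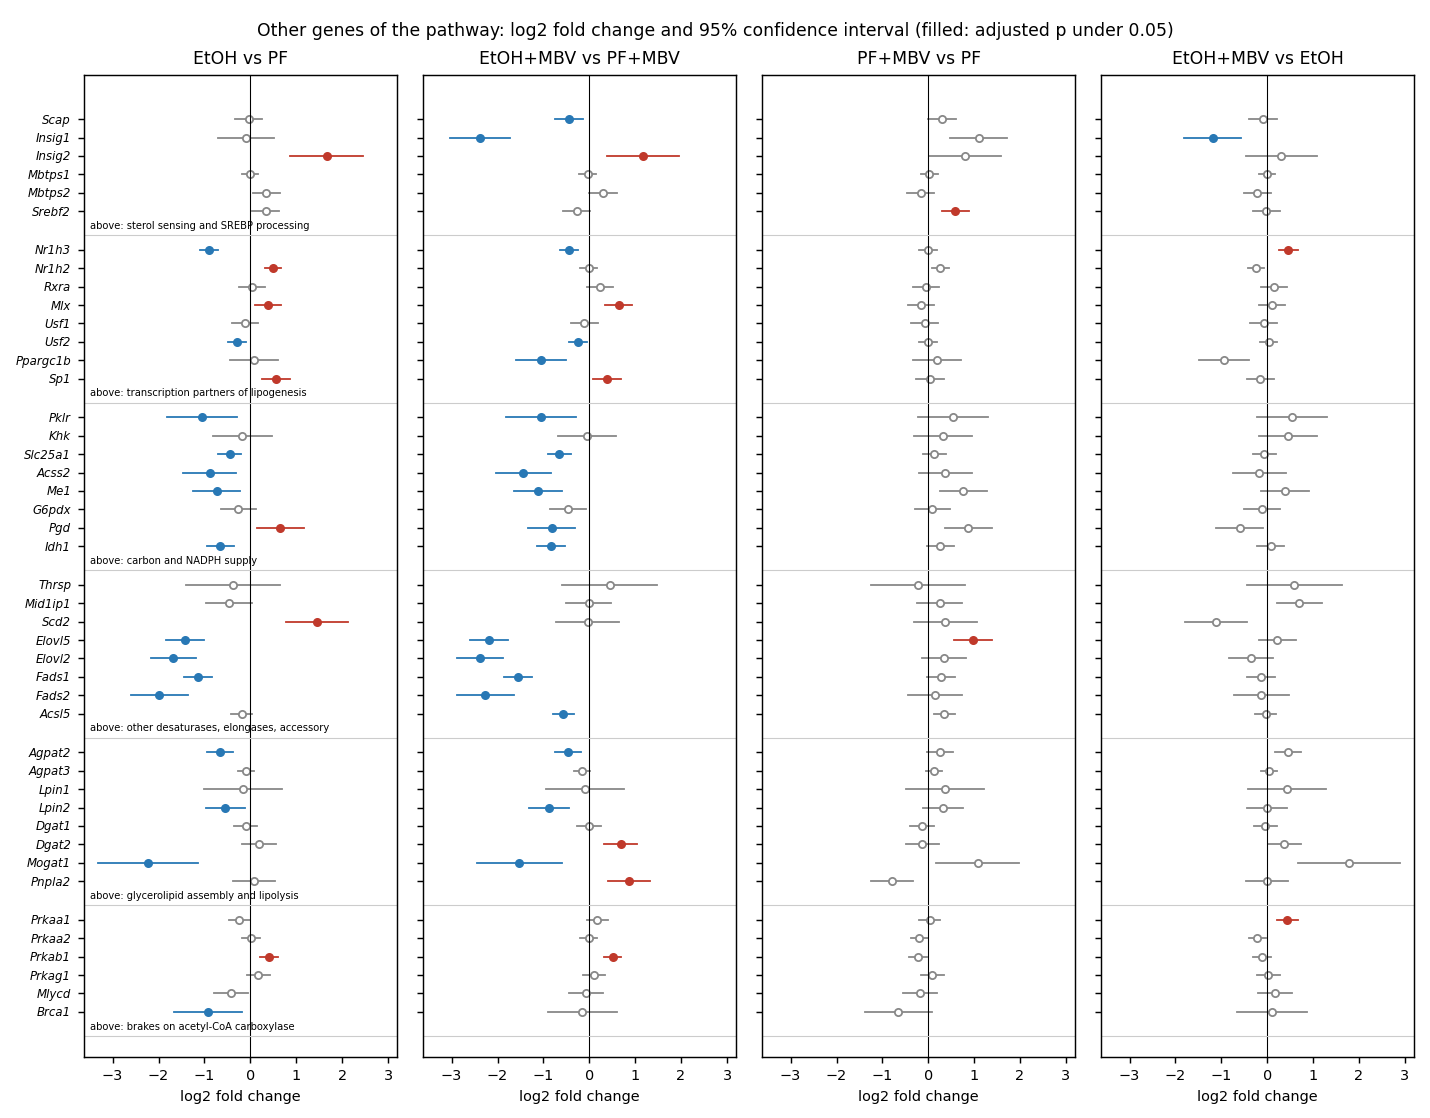
Log2 fold change with 95% confidence interval for the 44 tested genes of the 6 pathway lists in the 4 comparisons, grouped by list and filled where the adjusted p was under 0.05 (red higher, blue lower). Fads1, Fads2, Elovl2 and Elovl5 lie below 0 in both panels that compare diets, and few points are filled in the panels that compare MBV with vehicle.

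Markers of other cells that make fat were read beside these results. Of 8 adipocyte markers, Adipoq, Plin1 and Lep had no counts in any PF, EtOH or EtOH+MBV library. In PF+MBV, Adipoq and Plin1 were found in replicate 1 alone, at 0.94 and 1.06 CPM, a library whose members had a median deviation of -0.05 from their PF+MBV means. The summed adipocyte level was 53.5 to 61.2 CPM in PF, 42.3 to 128 in EtOH, 57.9 to 107 in EtOH+MBV and 31.6 to 138 in PF+MBV. By group mean its largest part was Cidec, at 31.8, 61.9, 57.3 and 26.2 CPM in that order. Fabp4 had means of 9.38, 25.1, 22.8 and 10.7 CPM, and Cfd 11.8, 0.055, 0.12 and 23.6 CPM. PF+MBV replicate 1 had a sum of 53.4 CPM. The highest sum, 138 CPM, was in PF+MBV replicate 4, whose members had a median deviation of -0.15. Of the 4 tested adipocyte markers, Cfd was lower and Fabp4 higher on ethanol both with and without MBV. Among all genes, 16.7% were called lower and 19.2% higher with MBV, and 19.5% and 20.4% without it. The part of these adipocyte marker differences in the results was not tested. The summed level of the 8 macrophage and monocyte markers was 208 to 271 CPM in PF, 125 to 314 in EtOH, 134 to 177 in EtOH+MBV and 225 to 247 in PF+MBV. Of the 7 tested, Ccr2 was lower and Cd68 higher in EtOH than in PF, where 19.5% of all genes were called lower and 20.4% higher. Ccr2 was scarce, with 6 to 9 counts per EtOH library and 18 to 40 per PF library. Cd68 overlapped, with 8.52 to 23.3 CPM in EtOH and 6.68 to 11.0 CPM in PF. The marker calls were not refitted without EtOH replicate 1. In EtOH+MBV 5 of the 7 were lower than in PF+MBV (16.7% of all genes). The hepatocyte sum was 111064 to 123914 CPM in EtOH+MBV and 84387 to 98016 CPM in PF+MBV. Most of that sum was Alb, at 83148 to 90109 CPM in EtOH+MBV and 62533 to 74313 CPM in PF+MBV. Ttr went the other way, with 3069 to 3840 CPM in EtOH+MBV and 3951 to 4429 CPM in PF+MBV. Apoa1, Apob and Serpinc1 overlapped between these groups. Of the 7 tested hepatocyte markers, Fgb was higher with ethanol both without (0.96) and with MBV (1.84), and Hnf4a with MBV (0.41). The share of all genes called higher was 20.4% without and 19.2% with MBV. The cholangiocyte sums overlapped between all groups (36.0 to 61.1 CPM), but of the 5 tested markers 2 differed in opposite directions. Sox9 was higher with ethanol both without (1.17; 20.4% of all genes) and with MBV (1.76; 19.2% of all genes). Spp1 was lower in EtOH+MBV than in PF+MBV (-0.91), as were 16.7% of all genes. The part of the macrophage and cholangiocyte marker differences in the members' results was not tested.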

How the data were processed

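The 16 deposited tables give whole-number read counts per gene for 1 library each, as raw counts. Reads were trimmed with Trimmomatic and aligned with STAR to build mm10, per the submitters' processing notes. The annotation, versions and settings behind them are not given in the sources read. Counts without regard to strand were used, because 50.6% to 51.8% of reads counted by strand fell on 1 of the strands. Reads outside genes, 9.40% to 10.9% of a library without a feature, were left out.

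Genes were filtered with edgeR 4.0.16 (filterByExpr, minimum count 10), scaled by TMM and fitted with 1 mean per group over all 16 libraries (quasi-likelihood, R 4.3.3). The tests were 4 pairwise contrasts and their interaction, with Benjamini-Hochberg adjustment over 12901 genes at 0.05. Log2 CPM used a prior count of 2. Alternatives were DESeq2 1.42.0, limma voom 3.58.1, RLE scaling, no filter, a replicate block, fits of the compared groups alone, EtOH replicate 1 with EtOH+MBV replicate 1 left out, each library left out in turn and, chosen after seeing the data, no TMM factors. The fit was tested on simulated data.

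All 10 members are named, as are the genes of 6 pathway lists with an adjusted p under 0.05 and, for 4 members, the 5 genes with the nearest profiles. A further listed gene is not reported here. Members and lists were chosen with earlier results of these data known. Coordinates come from GENCODE vM21 and upstream sequences from RefSeq, which were matched for 9 of the 10 members. Replicates differed by more than sampling noise (chi-square per degree of freedom 8.54 to 163). The depth of 15271344 to 20493181 counts gave Pnpla3 as few as 11 counts in a library.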

Additional observations from a re-analysis of the deposited data

Results flagged for a closer look

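Of 40 groups of 4 libraries checked (10 genes in 4 groups), 2 had a library whose gap to its nearest neighbour was large beside the group's whole range, and chance gives about 1 in 20. Both were EtOH+MBV replicate 1, for Mlxipl (229 CPM beside 146 to 156 CPM, a gap of 0.854 of the range in log2 CPM) and for Elovl6 (154 CPM beside 63.1 to 73.3 CPM, 0.831 of the range in log2 CPM).

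By the interaction contrast of edgeR, the difference with MBV was not the same on both diets for 2 of the 10 members and 3 of the 44 tested pathway genes, all with negative values, where 2.09% of all genes were called in this direction. Pnpla3 had an interaction of -3.76 and Gpam of -1.06 on the log2 scale, both with adjusted p = 0.0187. Insig1, which holds back SREBP, had -2.29 (adjusted p = 0.0137), with mean levels of 175 CPM in PF, 375 in PF+MBV, 164 in EtOH and 71.8 in EtOH+MBV. Its difference with MBV did not pass on the pair-fed diet (adjusted p = 0.0687), and that on ethanol (adjusted p = 0.0445) lost its call in 6 of 8 fits that left out a single library. Nr1h2, which encodes LXR beta, had -0.51 (adjusted p = 0.0315), a call lost without 8 of the 16 libraries (adjusted p up to 0.0772). Pgd, an NADPH-forming enzyme, had -1.47 (adjusted p = 0.0288), lost without 9 of the 16 (adjusted p up to 0.0652).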

How the results depend on the processing

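Counts over all genes moved most in the comparisons of MBV with vehicle, and the cause was not tested. For EtOH+MBV vs EtOH the 347 calls became 905 with DESeq2, 205 with the replicate block, 196 without TMM factors, 180 without EtOH replicate 1 and EtOH+MBV replicate 1, and 0 in an edgeR fit of those groups alone (1679 genes at an unadjusted p under 0.05). Leaving out single libraries gave 8 to 1169, and no member was called in any of these. For PF+MBV vs PF the 230 calls became 665 with DESeq2 and 1119 in a fit of those groups alone, where 5 members passed in place of 3. Single libraries left out gave 45 to 689 calls and 1 to 3 members (1 without PF replicate 1, 3 or 4 or PF+MBV replicate 2). The interaction's 530 calls became 1113 with DESeq2, 349 without TMM factors and 887 without EtOH replicate 1 and EtOH+MBV replicate 1, where 4 members passed in place of 2. Single libraries left out gave 168 to 1088. Without TMM factors the median of all genes shifted by -0.118 in EtOH+MBV vs EtOH, -0.142 in EtOH+MBV vs PF+MBV and -0.183 in the interaction. The share of calls that were higher went from 46.1% to 30.6%, 53.5% to 35.0% and 49.2% to 26.6%. Values near 0 changed sign. In EtOH+MBV vs EtOH without EtOH replicate 1 and EtOH+MBV replicate 1, Srebf1 was -0.47 and Mlxipl -0.24. With single libraries left out, Srebf1 ranged from -0.35 to 0.31, Mlxipl from -0.059 to 0.36, Acly from -0.78 to 0.035 and Elovl6 from -0.44 to 0.15. Acacb in PF+MBV vs PF ranged from -0.11 to 0.10. The interaction of Elovl6 was -0.0052 with limma voom, -0.022 without TMM factors and -0.28 without EtOH replicate 1 and EtOH+MBV replicate 1. That last setting also gave -0.0017 for Acacb and -0.11 for Scd1. With single libraries left out, the interaction ranged from -0.25 to 0.39 for Elovl6 and from -0.34 to 0.074 for Mlxipl. In fits of the compared groups alone, 12 of 52 pathway calls were lost.

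Libraries with the same replicate number showed little likeness: their deviations correlated over 0.1 in 3 of 24 pairs (-0.12 to 0.17). Only 2 of 16 libraries correlated best with their own number. The labels do not say what the number stands for, and these values would not show a weak pairing. The replicate block changed no member's call (50 of 50 results) and kept 51 of 55 for the pathway genes. A fit of the compared groups alone is the same as the main one for the interaction, and the setting without EtOH replicate 1 and EtOH+MBV replicate 1 does not touch PF+MBV vs PF. Among the 10 members depth limits Pnpla3 most, with 11 to 222 counts per library. The called pathway gene Mogat1 had fewer, with 1 to 14 counts per EtOH library.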
